A study of Mus musculus with 4 samples.

Results

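Cells make cholesterol from acetyl-CoA through the mevalonate pathway and long-chain fatty acids through acetyl-CoA carboxylation, chain assembly, elongation and desaturation, and they release surplus cholesterol through ABC transporters. The lipid genes described here are 51 genes of these routes, measured in NSCL61, a mouse neural stem cell line, and in its derivative NSCL61-sox11. Of the 51, 49 had a probe set that the platform annotation assigns to that gene alone, 45 were bright enough to be tested, and 4 were below the level filter. Expression of the remaining 2, Soat1 and Acsl1, was not analysed here, though their promoters enter the counts of promoter motifs. A gene was read through its probe set with the highest mean of the 4 arrays. The array held 18193 genes with such a probe set, of which 13084 were tested.

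NSCL61 cells are p53-/- neural stem cells on the C57BL/6 strain that the labels call glioma initiating cell-like, and NSCL61-sox11 is the same kind of cell made to express sox11. Both lines carry the p53-/- genotype, and the listed source for both is telencephalon of embryonic day 14.5, grown as floating spheres in serum-free medium with insulin, transferrin, progesterone, forskolin, PDGF and bFGF. Per the design text, tumorigenicity was lost in the derivative after transplantation. Each line was measured on 2 arrays, 4 in all, and each value below is the authors' processed value, read as log2. The labels do not tell whether a line's arrays stem from different cultures. The p-values therefore cover array-to-array spread alone, and that spread may be technical. NSCL61-sox11 stands as 1 line, so the expressed factor and the line cannot be told apart. In cultured cells measured in bulk, fewer cells of a type and less RNA per cell cannot be told apart either.

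Sox11, the transcription factor that names the derivative, checked the labels. Its brightest probe set read 5.09 and 4.82 in NSCL61 and 7.74 and 7.97 in NSCL61-sox11, a 7.45-fold difference (limma adjusted p = 0.000126). NSCL61 lies under the level filter of 5.15 on both arrays there, so the size of that fold rests on a low level. The other 3 tested probe sets of Sox11 rose 1.30-fold, 1.42-fold and 6.98-fold. The probe set with the 6.98-fold rise read 3.86 and 3.69 in NSCL61 and 6.59 and 6.56 in NSCL61-sox11. It and the brightest passed the level filter only through NSCL61-sox11, so these 2 folds rest on low NSCL61 levels. Correlations over the 27022 tested probe sets were 0.995 and 0.994 within the lines and 0.968 to 0.972 between them. As background for the marker counts, limma called 19.2% of all 13084 tested genes at an adjusted p of 0.05, 10.0% that rose and 9.19% that fell. Of 8 tested neural stem cell markers, 3 fell and 0 rose in NSCL61-sox11, and the neural progenitor factor Sox2 was among those that fell. Of 5 tested fibroblast and meningeal markers, 3 rose, and their list's summed linear level was 1005 to 1733 in NSCL61 and 2807 to 5019 in NSCL61-sox11. Of 4 tested endothelial and mural markers 2 rose, Rgs5 and Acta2, and the list's summed level was 338 to 356 in NSCL61 and 693 to 832 in NSCL61-sox11. The endothelial genes of the list did not rise. Cdh5 differed by -0.59 and Kdr by 0.10 without passing, and Pecam1 and Tek lay below the level filter. Neuronal markers gave 2 rises among 3 tested, Tubb3 and Syt1 (308 to 313 against 445 to 454). Astrocyte markers gave 1 among 6, Slc1a3, while 4 of the 6 lay below 0 and their median was -0.18. The summed level of that list, 371 to 431 against 465 to 514, includes Slc1a3. Oligodendrocyte markers gave 0 calls among 4 tested in limma. Of 8 microglial and macrophage markers, 3 passed the level filter and 0 were called by limma. The adipocyte genes Adipoq and Cidec lay below the level filter, and the only adipocyte-list gene tested, Adipor2, was not called. The part of these marker shifts in the lipid gene results was not tested.

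Sterol synthesis and desaturase genes are classic targets of the SREBP factors, which are held in the endoplasmic reticulum by Insig proteins with Scap when sterols are plentiful and released to the nucleus when sterols fall. Srebf1 encodes the form tied most to fatty acid synthesis and Srebf2 the form tied most to sterol synthesis. LXR receptors respond to oxysterols and raise Abca1, Abcg1, Mylip and Apoe, and also Srebf1 and desaturases. In the developing brain, cholesterol is largely made locally, since lipoproteins cross the blood-brain barrier poorly. SREBP works at promoters with neighbouring NF-Y and Sp1 sites, which were therefore searched as CCAAT and GGGCGG on both strands, with TCACNCCAC as a sterol response element.

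The promoters below, 250 bases before the annotated start in RefSeq (GRCm38.p6), are those of 3 sterol synthesis genes that fell, 2 fatty acid synthesis genes that fell, Hmgcs1 as the sterol gene whose window holds the sterol element, and Abca1 as the efflux gene. They read 5′ to 3′ on the gene's own strand, and capitals mark TCACNCCAC, CCAAT or GGGCGG on either strand.
Hmgcs1 promoter, chr13:119690101-119690350, plus strand: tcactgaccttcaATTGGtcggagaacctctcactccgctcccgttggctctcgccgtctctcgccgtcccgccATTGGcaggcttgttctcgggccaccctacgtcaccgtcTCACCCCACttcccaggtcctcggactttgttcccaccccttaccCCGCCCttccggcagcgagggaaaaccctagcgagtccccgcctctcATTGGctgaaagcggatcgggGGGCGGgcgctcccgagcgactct
Idi1 promoter, chr13:8885356-8885605, plus strand: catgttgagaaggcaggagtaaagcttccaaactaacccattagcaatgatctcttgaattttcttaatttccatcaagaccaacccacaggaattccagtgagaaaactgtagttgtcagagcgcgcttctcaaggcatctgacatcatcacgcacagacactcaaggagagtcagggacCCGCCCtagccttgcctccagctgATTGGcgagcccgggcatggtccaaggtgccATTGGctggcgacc
Msmo1 promoter, chr8:64733579-64733828, minus strand: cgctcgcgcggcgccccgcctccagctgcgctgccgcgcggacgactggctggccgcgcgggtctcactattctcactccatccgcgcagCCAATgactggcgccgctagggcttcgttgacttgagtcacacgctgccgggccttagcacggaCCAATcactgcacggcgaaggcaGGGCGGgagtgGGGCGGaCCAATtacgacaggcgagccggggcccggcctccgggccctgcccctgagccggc
Tm7sf2 promoter, chr19:6067851-6068100, minus strand: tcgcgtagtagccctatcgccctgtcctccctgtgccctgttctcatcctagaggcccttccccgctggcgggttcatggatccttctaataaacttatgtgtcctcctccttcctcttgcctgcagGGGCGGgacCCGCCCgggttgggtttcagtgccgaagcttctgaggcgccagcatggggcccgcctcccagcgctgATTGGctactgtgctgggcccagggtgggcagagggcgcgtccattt
Fasn promoter, chr11:120824548-120824797, minus strand: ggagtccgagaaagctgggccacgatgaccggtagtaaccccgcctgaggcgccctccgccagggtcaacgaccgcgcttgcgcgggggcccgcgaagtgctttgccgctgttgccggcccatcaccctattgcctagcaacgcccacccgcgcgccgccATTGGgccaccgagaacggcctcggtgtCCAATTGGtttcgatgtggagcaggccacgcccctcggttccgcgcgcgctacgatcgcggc
Elovl6 promoter, chr3:129532136-129532385, plus strand: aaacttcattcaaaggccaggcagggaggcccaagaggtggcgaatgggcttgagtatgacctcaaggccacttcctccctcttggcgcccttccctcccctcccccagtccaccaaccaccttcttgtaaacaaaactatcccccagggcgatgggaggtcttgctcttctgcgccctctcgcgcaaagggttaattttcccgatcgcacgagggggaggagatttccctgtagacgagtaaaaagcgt
Abca1 promoter, chr4:53159896-53160145, minus strand: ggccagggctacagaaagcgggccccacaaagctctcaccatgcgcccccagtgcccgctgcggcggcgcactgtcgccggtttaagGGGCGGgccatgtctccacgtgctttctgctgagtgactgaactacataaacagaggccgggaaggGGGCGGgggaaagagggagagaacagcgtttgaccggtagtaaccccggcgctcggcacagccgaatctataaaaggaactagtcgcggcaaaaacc

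Of the 51 members, 39 matched an entry, with 51 promoters among them because some genes have several starts. The sterol synthesis group had 17 promoters from 14 genes, and Fdft1, which fell, had no entry. CCAAT was present in 14 of these 17 promoters (82.4%), against 33.8% of all 32851 promoters, and GGGCGG in 82.4% against 32.7%. Over all members' promoters, 60.8% held CCAAT and 66.7% held GGGCGG. Among the 9 promoters of fatty acid synthesis genes, 44.4% held CCAAT and 55.6% held GGGCGG. TCACNCCAC matched 1 of the 17 sterol synthesis promoters, that of Hmgcs1, and 1.05% of all promoters. For the LXR-type element, exact copies alone were searched. Such a match, 2 copies of AGGTCA or AGTTCA with 4 bases between them, was in none of the members' promoters and 0.0244% of all. Copies with other letters were not searched, so this does not show that the members' promoters, Abca1 among them, lack such an element. The Sox-type words AACAAT or ACAAAG matched 29.4% of sterol synthesis promoters, 0 of 9 fatty acid synthesis promoters, 17.6% of the members' promoters and 24.0% of all promoters. Promoters of a gene with several starts can overlap, so these shares count shared sequence more than once. A match is a description of letters and not a bound site.

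Lipid synthesis genes were mostly lower in NSCL61-sox11 than in NSCL61, by modest amounts, and few differences passed the test. Of the 45 tested members, 6 fell, 1 rose and 38 did not pass limma's test at an adjusted p of 0.05. The background on this array was 19.2% of all 13084 tested genes called, with 10.0% that rose and 9.19% that fell. The members' count of 7 calls is therefore close to the background share. Below 0 lay 36 of 45 log2 differences (80.0%), against 53.3% of all genes, and the members' median was -0.17 against -0.02. Both NSCL61-sox11 arrays lay below both NSCL61 arrays for 22 of 45 members, where 32.9% of all genes did so, and above both for 4 members, where 29.3% of all genes did.

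**Figure D1:**
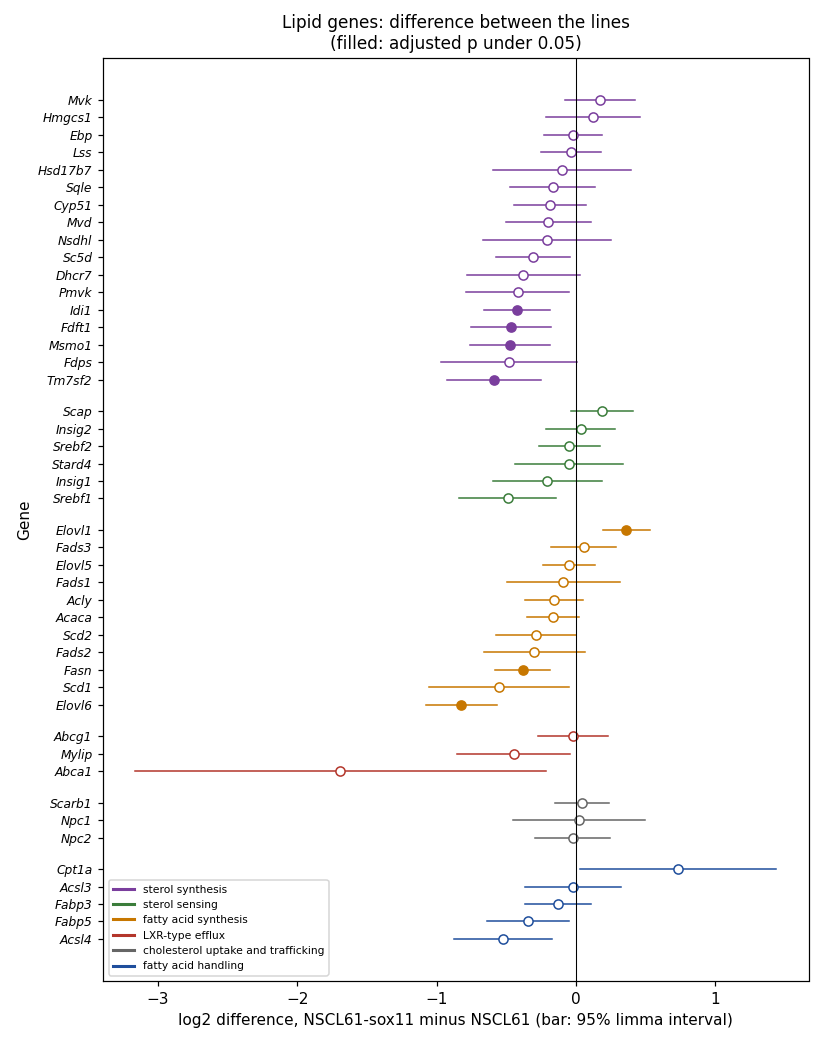
Each point is the log2 difference of 1 lipid gene, NSCL61-sox11 minus NSCL61, with limma's 95% interval as a bar, and genes are grouped by role in colour. Filled points passed an adjusted p of 0.05, 6 below 0 and 1 above, and most open points of the sterol and fatty acid synthesis groups also lie left of 0.

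The count of calls depended on single arrays and on the scaling. Without NSCL61 array 1, 1 member fell and 0 rose in limma, where the whole array gave 375 genes that fell and 533 that rose. Without NSCL61 array 2 the members again gave 1 and 0, and the whole array 307 and 637. In both cases the 1 that fell was Elovl6. Dropping NSCL61-sox11 array 1 left 5 members that fell and 3 that rose, beside 1316 and 1376 genes of the whole array. Dropping NSCL61-sox11 array 2 left 21 and 1, beside 1231 and 1246 genes. Added poly-A control transcripts read 0.40 higher in NSCL61-sox11 and hybridisation controls 0.22 higher (log2). The poly-A controls also differed within each line, at 7.32 and 7.03 in NSCL61 and 7.74 and 7.42 in NSCL61-sox11. The hybridisation controls read 9.98 and 9.99 in NSCL61 and 10.10 and 10.31 in NSCL61-sox11. Scaling the arrays to the poly-A controls moved the median of all genes to -0.42 and gave 11 members that fell and 0 that rose, with 1051 and 303 genes of the whole array. Scaling to the hybridisation controls moved that median to -0.24 and gave 18 members that fell and 1 that rose, with 2336 and 702 genes. All differences below are therefore relative to the bulk of genes on the array.

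Of 17 mevalonate and sterol synthesis enzymes, the largest role group, 4 fell, 0 rose and 13 did not pass in limma. Those that fell were Idi1, Fdft1, Tm7sf2 and Msmo1, by 0.42 to 0.59 on the log2 scale. The group's differences ran from -0.59 to 0.17 with a median of -0.21, and 15 of 17 lay below 0. Without NSCL61-sox11 array 1 the median was -0.049, 10 of 17 lay below 0 and 2 fell, and without NSCL61-sox11 array 2 the median was -0.46, 16 lay below 0 and 11 fell. With 1 NSCL61 array left out, whichever it was, limma called 0 of the 17 as lower. In 9 of the 17, both NSCL61-sox11 arrays lay below both NSCL61 arrays, and in 1, Mvk, above. Of all genes, 32.9% lay below in this way and 29.3% above. The genes that fell sit at different steps of the route, before and after squalene.

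Idi1, the isomerase that makes the allylic building block of isoprenoids, read 11.33 and 11.31 in NSCL61 and 10.76 and 11.03 in NSCL61-sox11. The groups do not overlap, and the arrays of NSCL61-sox11 lie further apart than those of NSCL61. Its log2 difference was -0.42 (SE 0.10, adjusted p = 0.0325), and its second probe set gave -0.53 (adjusted p = 0.0327). Fdft1, squalene synthase, the first enzyme committed to sterols, read 10.30 and 10.42 in NSCL61 and 9.73 and 10.05 in NSCL61-sox11. It fell by 0.47 on the log2 scale (SE 0.12, adjusted p = 0.0428) on its brightest probe set. The other 3 probe sets of Fdft1 gave -0.37, -0.14 and 0.02 and did not pass, so its probe sets disagree. Averaged over its probe sets, Fdft1 differed by -0.24 and was not called.

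Tm7sf2, a sterol reductase that acts soon after lanosterol, read 7.15 and 7.40 in NSCL61 and 6.55 and 6.83 in NSCL61-sox11. Both NSCL61-sox11 arrays are low, and the difference was -0.59 (SE 0.14, adjusted p = 0.0345). Msmo1, the methylsterol oxidase that starts removal of methyl groups from the sterol ring, read 11.56 and 11.71 in NSCL61 and 10.99 and 11.32 in NSCL61-sox11. It fell by 0.48 on the log2 scale (SE 0.12, adjusted p = 0.0411), again with no overlap. Each of these 4 calls was lost without NSCL61 array 1 and without NSCL61 array 2, while the differences stayed below 0. Without array 1 the adjusted p was 0.181 for Idi1, 0.145 for Fdft1, 0.0720 for Tm7sf2 and 0.122 for Msmo1. Without array 2 it was 0.163, 0.227, 0.180 and 0.224, in the same order. Leaving out NSCL61-sox11 array 1 also ended the calls of Fdft1 (adjusted p = 0.0592) and Tm7sf2 (0.0819). A fit without the trend of variance with level ended those of Idi1, Fdft1 and Msmo1, and quantile normalization those of Fdft1 and Msmo1. Over the 14 alternatives tried, the highest adjusted p of these genes was 0.180 to 0.227 and the lowest 1.59e-07 to 1.71e-05.

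The 2 brightest sterol enzymes that were not called went different ways. Fdps, which joins isoprenoid units into farnesyl diphosphate, read 11.80 and 12.06 in NSCL61 and 11.12 and 11.77 in NSCL61-sox11, a difference of -0.48 (95% interval -0.97 to 0.01, adjusted p = 0.162). That size matches the called genes, but its NSCL61-sox11 arrays lie far apart, and without array 2 of that line its difference was -0.80 (adjusted p = 0.00193). Hmgcs1, which makes HMG-CoA at the head of the pathway, read 11.19 and 11.29 in NSCL61 and 11.14 and 11.57 in NSCL61-sox11. Its arrays overlap between the lines, and the difference of 0.12 (interval -0.22 to 0.46, adjusted p = 0.623) had no stable sign. It was -0.29 under poly-A scaling and -0.10 under hybridisation control scaling. Dropping NSCL61-sox11 array 1 gave 0.34 (adjusted p = 0.0220; highest over the alternatives 0.889), and dropping the other array of that line gave -0.10.

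The other 11 sterol enzymes did not pass. Among those whose arrays did not overlap, named after their values were seen, the kinase Pmvk differed by -0.42 (adjusted p = 0.117) and Dhcr7, which makes cholesterol in the last step of one branch, by -0.38 (adjusted p = 0.182). Sc5d, a sterol desaturase just before Dhcr7, differed by -0.31 (adjusted p = 0.110), and the lanosterol demethylase Cyp51 by -0.19 (adjusted p = 0.287). The other probe sets of these genes overlapped between the lines, at 0.16 and -0.06 for Sc5d and -0.01 and -0.21 for Cyp51. The probe sets of Sc5d thus disagree in sign. Mvd, the decarboxylase before Idi1, overlapped and differed by -0.20 (adjusted p = 0.346). Mvk, Sqle, Lss, Nsdhl, Hsd17b7 and Ebp make up the rest. Squalene epoxidase, Sqle, often described as a control point of the route, read 10.87 and 10.85 in NSCL61 and 10.50 and 10.88 in NSCL61-sox11, so only 1 array of the derivative was low.

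**Figure D2:**
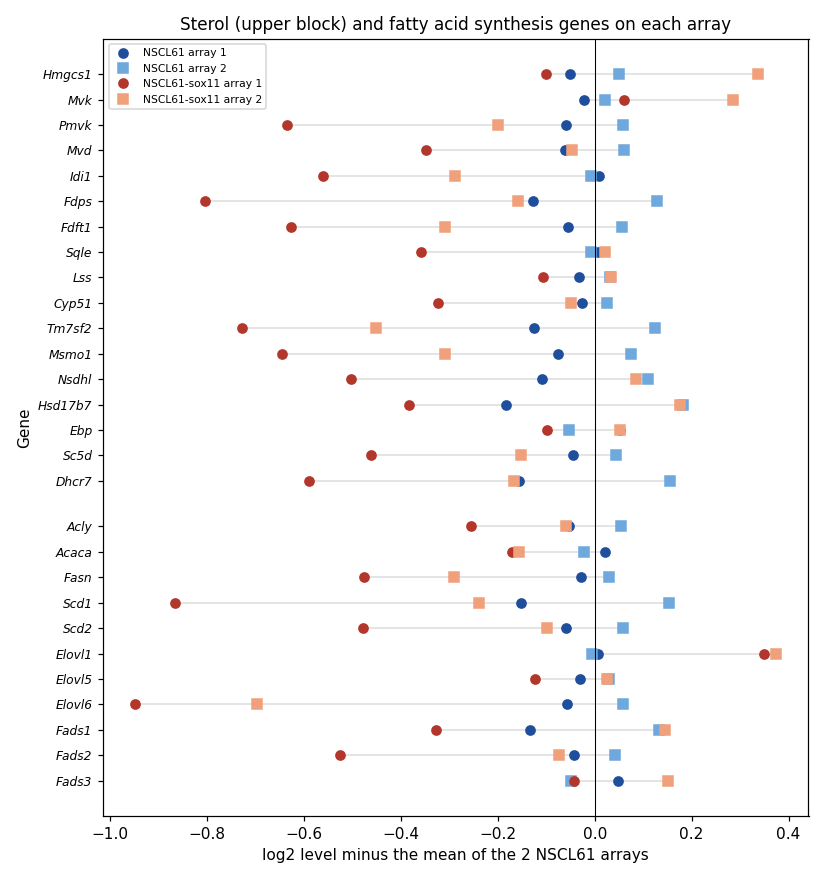
Each row is a sterol synthesis gene (upper block) or a fatty acid synthesis gene (lower block), and each marker is 1 array's log2 level minus the mean of the 2 NSCL61 arrays. In most rows NSCL61-sox11 array 1 lies furthest left and NSCL61-sox11 array 2 between it and the NSCL61 arrays, while Elovl1 lies to the right on both NSCL61-sox11 arrays.

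The lipid genes also differed between the arrays within a line. In NSCL61-sox11, array 2 read higher than array 1 for 17 of 17 sterol synthesis genes, with a median difference of 0.32, and for 11 of 11 fatty acid synthesis genes, with a median of 0.20. In NSCL61, array 2 read higher for 14 of the 17 sterol synthesis genes, with a median of 0.11, and for 8 of the 11 fatty acid synthesis genes. Over all tested members the share was 95.6% in NSCL61-sox11 and 80.0% in NSCL61, against 46.7% and 50.5% of all genes. The median within-line difference of sterol synthesis genes in NSCL61-sox11, 0.32, was thus larger in size than their median difference between the lines, -0.21. The difference between the lines exceeded both within-line differences in 13 of 45 members (28.9%), against 50.9% of all genes. Whether the arrays differ through culture, RNA or hybridisation was not tested.

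**Figure D3:**
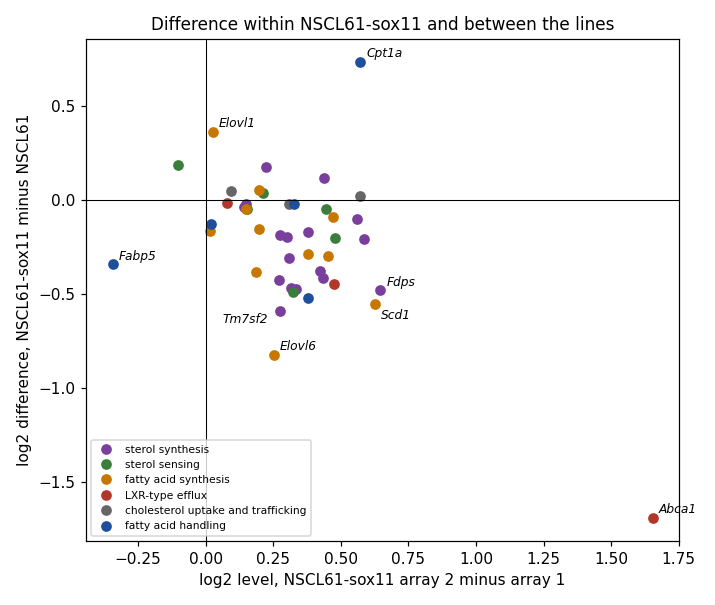
Each point is 1 tested lipid gene, with the log2 difference between the arrays of NSCL61-sox11 on the horizontal axis and the difference between the lines on the vertical axis. Nearly all points lie right of 0, 43 of 45, and Abca1 has the widest spread on both axes.

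The sensors and regulators of sterol level, 6 genes, gave 0 calls in limma, and 4 of 6 lay below 0 with a median of -0.05. Srebf1, the factor tied most to fatty acid synthesis, read 10.25 and 10.56 in NSCL61 and 9.75 and 10.07 in NSCL61-sox11. The lines do not overlap, but the difference of -0.49 (SE 0.14, interval -0.84 to -0.14) did not pass, with an adjusted p of 0.0658. It passed under 5 of 14 alternatives, among them the one without NSCL61-sox11 array 2 (adjusted p = 0.0136; range over all 14, 1.32e-06 to 0.319). Srebf2, the factor tied most to sterol synthesis, read 9.46 and 9.51 in NSCL61 and 9.36 and 9.51 in NSCL61-sox11. These arrays overlap, and the difference was -0.05 (interval -0.27 to 0.17, adjusted p = 0.766). Insig1, which holds SREBP in the endoplasmic reticulum and is itself an SREBP target, read 8.37 and 8.47 in NSCL61 and 7.98 and 8.46 in NSCL61-sox11. Only NSCL61-sox11 array 1 was low, and the difference was -0.20 (adjusted p = 0.451). Without NSCL61-sox11 array 2, Insig1 differed by -0.44 (adjusted p = 0.0414), and without NSCL61-sox11 array 1 by 0.04. Stard4, a carrier of free sterol, read 9.64 and 9.88 in NSCL61 and 9.49 and 9.93 in NSCL61-sox11, a difference of -0.05 (adjusted p = 0.868). Scap, the escort of SREBP, differed by 0.19 (adjusted p = 0.219) and Insig2 by 0.03 (adjusted p = 0.859).

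Fatty acid synthesis genes gave the largest called change among the members. Of 11 tested, 2 fell (Elovl6 and Fasn), 1 rose (Elovl1) and 8 did not pass in limma. The median was -0.16, 9 of 11 lay below 0, and 7 had both NSCL61-sox11 arrays below both NSCL61 arrays. Over all genes, 32.9% had both NSCL61-sox11 arrays below in this way. The elongases Elovl6 and Elovl1 thus moved in opposite directions.

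Elovl6, the elongase that extends palmitate to stearate, read 10.56 and 10.68 in NSCL61 and 9.67 and 9.92 in NSCL61-sox11. The gap between the lines is wider than the spread within either, and the fall was 1.77-fold (log2 difference -0.82, SE 0.11, adjusted p = 0.00454). A second probe set gave -0.62 (adjusted p = 0.0149), and the dimmest -0.22 (adjusted p = 0.405). The Elovl6 call held under all 14 alternatives tried, with adjusted p from 6.70e-12 to 0.0461. Fasn, the synthase that assembles palmitate, read 11.49 and 11.55 in NSCL61 and 11.04 and 11.23 in NSCL61-sox11. The lines do not overlap, and it fell by 0.38 on the log2 scale (SE 0.08, adjusted p = 0.0247). Leaving out NSCL61 array 1 (adjusted p = 0.132) or NSCL61 array 2 (0.177), or the trend of variance with level, ended that call, within a range over the alternatives of 9.43e-06 to 0.177.

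Elovl1, which extends saturated very long chains for sphingolipids, read 10.13 and 10.12 in NSCL61 and 10.47 and 10.50 in NSCL61-sox11. The arrays of each line nearly coincide, and the rise was 1.29-fold (log2 difference 0.36, SE 0.07, adjusted p = 0.0187). Of its 4 probe sets 3 rose, and the dimmest gave 0.26 without passing. Leaving out NSCL61 array 1 (adjusted p = 0.144) or NSCL61 array 2 (0.154) ended the call. Under hybridisation control scaling the difference was 0.14, and under poly-A scaling it became -0.04 (adjusted p = 0.904, the highest of the alternatives; the lowest was 0.000141). The rise of Elovl1 is therefore a rise relative to the bulk of genes.

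The stearoyl-CoA desaturases, which make oleate and palmitoleate, did not pass. Scd1 read 10.62 and 10.92 in NSCL61 and 9.90 and 10.53 in NSCL61-sox11, a difference of -0.55 (interval -1.05 to -0.05, adjusted p = 0.124). Its second probe set gave -0.54 (adjusted p = 0.0513). Scd2, the form most prominent in brain, read 13.17 and 13.28 in NSCL61 and 12.75 and 13.13 in NSCL61-sox11, a difference of -0.29 (interval -0.58 to 0.00, adjusted p = 0.158). For both genes the lines do not overlap and NSCL61-sox11 array 1 is the low one. Without NSCL61-sox11 array 2 the adjusted p was 0.00349 for Scd1 and 0.00170 for Scd2, and over the 14 alternatives it ran to 0.437 and 0.478. Acly, which makes cytosolic acetyl-CoA from citrate, read 11.70 and 11.80 in NSCL61 and 11.49 and 11.69 in NSCL61-sox11, a difference of -0.16 (adjusted p = 0.265). Acaca, the carboxylase that makes malonyl-CoA, differed by -0.16 (adjusted p = 0.210), and the desaturase Fads2 by -0.30 (adjusted p = 0.230), both named after their values were seen. Elovl5 and Fads1, which act on polyunsaturated chains, and Fads3 overlapped between the lines and differed by -0.05, -0.09 and 0.05.

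**Figure D4:**
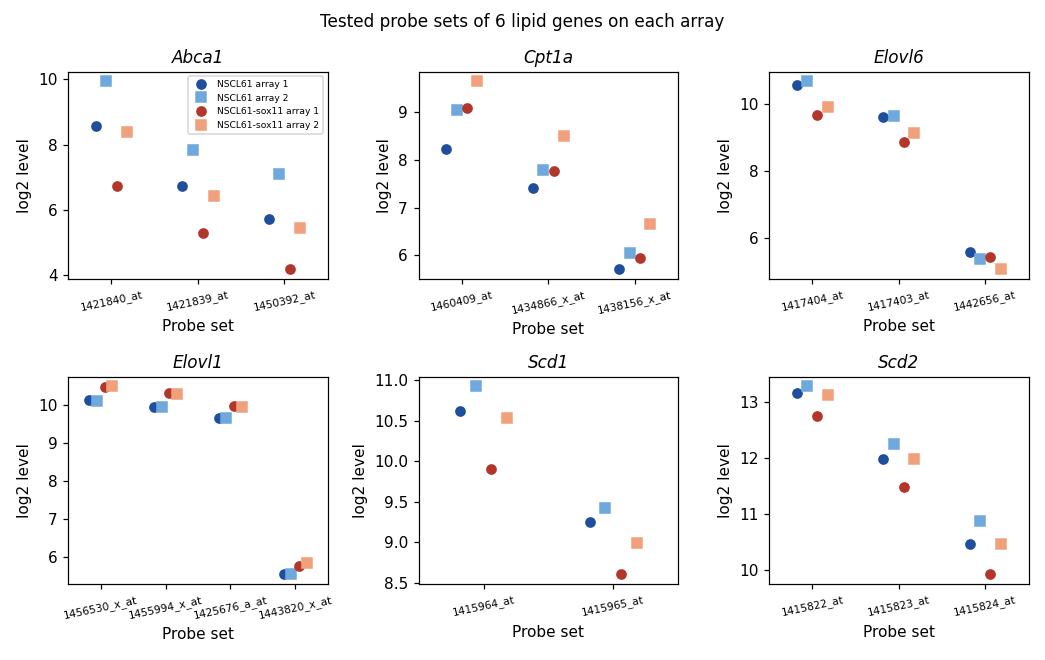
Each panel shows the tested probe sets of 1 lipid gene, and each marker is 1 array's log2 level. All 3 probe sets of Abca1 show NSCL61-sox11 lower with wide spacing between the arrays of each line, while the arrays of Elovl1 nearly coincide within a line.

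Of the LXR-type efflux genes, 3 of 4 were tested and 0 were called by limma, with a median of -0.45. Abca1, the transporter that loads cholesterol onto apolipoproteins, had the largest difference of any member in size. It read 8.56 and 9.94 in NSCL61 and 6.73 and 8.38 in NSCL61-sox11, so the arrays of each line were themselves more than 1 log2 unit apart. NSCL61-sox11 array 2 lies close to NSCL61 array 1, without overlap. The difference was -1.69, or 3.23-fold (SE 0.61, interval -3.16 to -0.22), and did not pass (adjusted p = 0.112). The other 2 probe sets gave -1.43 (adjusted p = 0.0835) and -1.60 (0.0919), with the same order of arrays within each line. Abca1 passed without NSCL61-sox11 array 2 (difference -2.52, adjusted p = 0.00842) and differed by -0.86 without NSCL61-sox11 array 1 (adjusted p = 0.245), within a range over the alternatives of 8.22e-24 to 0.419.

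The other efflux genes showed less. Mylip, the ligase that marks lipoprotein receptors for degradation, read 6.83 and 6.68 in NSCL61 and 6.07 and 6.54 in NSCL61-sox11. The difference was -0.45 (interval -0.86 to -0.04, adjusted p = 0.125), and without NSCL61-sox11 array 2 it was -0.68 (adjusted p = 0.0157; range over the alternatives 0.00291 to 0.408). Abcg1, which passes cholesterol to mature lipoproteins, read 5.24 and 5.28 in NSCL61 and 5.20 and 5.28 in NSCL61-sox11, just above the filter. Its difference was -0.02 (adjusted p = 0.925). Apoe, the main apolipoprotein made by glia, lay below the filter at 4.47 and 4.38 in NSCL61 and 4.37 and 4.37 in NSCL61-sox11, and was not tested.

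Cholesterol uptake and trafficking genes were close to 0. Npc2, which hands cholesterol to Npc1 in lysosomes, read 11.73 and 11.88 in NSCL61 and 11.62 and 11.93 in NSCL61-sox11, a difference of -0.02 (interval -0.29 to 0.24, adjusted p = 0.910). Scarb1, a receptor for high-density lipoprotein, read 9.67 and 9.68 in NSCL61 and 9.67 and 9.77 in NSCL61-sox11, a difference of 0.04 (interval -0.15 to 0.24, adjusted p = 0.757). Npc1 differed by 0.02 (interval -0.45 to 0.50, adjusted p = 0.956). Limma called 0 of these 3, and the arrays overlapped between the lines in each of them.

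Among genes that handle fatty acids, 5 of 9 were tested and 0 were called by limma at the gene's brightest probe set. Acsl4, a ligase that prefers arachidonate, read 10.38 and 10.62 in NSCL61 and 9.79 and 10.17 in NSCL61-sox11. The lines do not overlap, and the difference was -0.52 (SE 0.14, adjusted p = 0.0550). A second probe set of Acsl4 fell by 0.78 on the log2 scale (adjusted p = 0.0181), and the other gave -0.71 (adjusted p = 0.0644). Acsl4 passed under 7 of 14 alternatives, with adjusted p from 3.68e-07 to 0.274, including the one without NSCL61-sox11 array 2 (0.00535). Fabp5, a fatty acid binding protein of neural progenitors, read 11.21 and 11.07 in NSCL61 and 10.97 and 10.63 in NSCL61-sox11, a difference of -0.34 (adjusted p = 0.108). Fabp5 and Scap were the tested members whose NSCL61-sox11 array 2 read lower than array 1, and Fabp5 passed without NSCL61-sox11 array 1 (adjusted p = 0.00693; range 0.000137 to 0.422).

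Cpt1a, which commits fatty acids to mitochondrial oxidation, had the largest positive difference of the members and was named after its values were seen. It read 8.23 and 9.05 in NSCL61 and 9.08 and 9.66 in NSCL61-sox11, so the lines almost touch. The difference was 0.73 (interval 0.03 to 1.44, adjusted p = 0.141), and all 3 of its probe sets lay above 0 without passing. Without NSCL61-sox11 array 1 it was 1.02 (adjusted p = 0.0448), within a range over the alternatives of 6.78e-09 to 0.528. Acsl3 and Fabp3 differed by -0.02 and -0.13. Fabp7, the radial glia binding protein, lay below the filter at 4.39 and 4.22 in NSCL61 and 4.25 and 4.32 in NSCL61-sox11. Lpl and Cd36, which serve uptake of fatty acids, were also below it, at 4.08 to 4.26 and 3.12 to 3.53, and were not tested.

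Several probe sets were available for many members. Of 98 tested member probe sets, 9 fell and 3 rose in limma, where 8.32% and 8.99% of all 27022 tested probe sets did so. In 29 members more than 1 probe set was tested, and in 21 of these all lay on the same side of 0, while in 8 they lay on both sides. Over the array, 68.9% of 6085 genes with more than 1 tested probe set had all of them on the same side.

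Other genes of the same pathways, 85 in 7 lists, gave a more even picture. Of 74 tested, 7 rose, 6 fell and 61 did not pass in limma, where 10.0% of all genes rose and 9.19% fell. Both counts are close to those shares, which are also the background for the counts of each list below. The median was 0.03 against -0.02 for all genes. Neither the 9 tested genes of isoprenoid and sterol branches, from -0.34 to 0.25, nor the 7 of SREBP processing, from -0.25 to 0.11, held a called gene.

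Among 14 tested genes of fatty acid supply and elongation, 3 fell and 1 rose. Mid1ip1, which promotes polymerisation of acetyl-CoA carboxylase, read 10.82 and 10.79 in NSCL61 and 10.05 and 10.22 in NSCL61-sox11, a difference of -0.67 (adjusted p = 0.00426). Elovl4, an elongase of very long chains, differed by -0.62 (adjusted p = 0.0135), and Hsd17b12, the ketoacyl reductase of the elongation cycle, named after its value was seen, by -0.42 (adjusted p = 0.00725). Elovl7 rose by 0.89 (adjusted p = 0.00347). Of the elongases of this list, the tested Elovl4 and Elovl7 had arrays that did not overlap between the lines, one lower and one higher, and Elovl2 lay below the filter. Without NSCL61 array 1 the calls of Mid1ip1 (adjusted p = 0.0501), Elovl4 (0.0946) and Hsd17b12 (0.0732) were lost, that of Hsd17b12 also without NSCL61 array 2 (0.0934), and that of Elovl7 under poly-A scaling (0.252). The ranges over the alternatives were 8.10e-10 to 0.0501 for Mid1ip1, 7.39e-06 to 0.0946 for Elovl4, 5.72e-07 to 0.0934 for Hsd17b12 and 2.75e-09 to 0.252 for Elovl7.

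Among 9 tested lipoprotein receptors and sterol carriers 4 rose and 0 fell. Vldlr, the very low density lipoprotein and reelin receptor, read 4.54 and 5.12 in NSCL61 and 5.67 and 6.03 in NSCL61-sox11, a difference of 1.02 (adjusted p = 0.0245). Both NSCL61 arrays of Vldlr lie under the level filter of 5.15, so it was tested only because NSCL61-sox11 was high. Lipa, the lysosomal acid lipase that frees cholesterol from its esters, differed by 0.69 (adjusted p = 0.0390), and Lrp1, a large scavenging receptor, by 0.64 (adjusted p = 0.00762). The fourth, Osbp, a carrier of oxysterols named after its value was seen, differed by 0.42 (adjusted p = 0.0163). Hybridisation control scaling ended the calls of Lrp1 and Osbp. That of Lipa was lost when averaged over its probe sets, without probe sets of the _x_at and _s_at kinds, and without the trend of variance with level. Poly-A scaling ended all 4 calls, with differences of 0.61, 0.28, 0.23 and 0.01. Leaving out NSCL61 array 1 ended them too, with adjusted p of 0.0935, 0.197, 0.0725 and 0.139, and leaving out NSCL61 array 2 ended those of Lipa (0.121), Lrp1 (0.0553) and Osbp (0.116). Without NSCL61-sox11 array 2, Vldlr and Lipa had an adjusted p of 0.0505 each. The highest adjusted p over the alternatives was 0.134 for Vldlr, 0.439 for Lipa, 0.497 for Lrp1 and 0.971 for Osbp, and the lowest was 2.40e-08, 1.26e-07, 1.57e-08 and 7.43e-05.

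Of 11 tested LXR receptors and further efflux genes, 1 rose and 0 fell. Pltp, a phospholipid transfer protein and known LXR target, read 7.78 and 8.11 in NSCL61 and 8.85 and 9.25 in NSCL61-sox11. It rose 2.15-fold (log2 difference 1.10, SE 0.17, adjusted p = 0.00821), while Abca1, another LXR target, lay on the other side of 0. Pltp no longer passed without NSCL61 array 1 (adjusted p = 0.0545) and under poly-A scaling (0.111), with a lowest value of 2.61e-13 over the alternatives.

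Genes of fatty acid oxidation and storage gave 2 that fell and 0 that rose among 19 tested. Pnpla2, the lipase that starts breakdown of triglyceride stores, read 9.02 and 9.11 in NSCL61 and 8.12 and 8.19 in NSCL61-sox11. It fell 1.88-fold (log2 difference -0.91, SE 0.09, adjusted p = 0.00174), and the call held under all 14 alternatives, up to an adjusted p of 0.0222. Plin2, a coat protein of lipid droplets, differed by -0.31 (adjusted p = 0.0210). That call was lost without NSCL61 array 1, without NSCL61 array 2, under poly-A scaling and without the trend of variance with level. Over the alternatives the difference of Plin2 ran from -0.71 to -0.28.

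In the short list of further fatty acid carriers and ligases, 5 were tested, and the ligases Acsl5 and Acsl6 moved apart. Acsl6, a ligase of brain, read 7.63 and 7.83 in NSCL61 and 6.24 and 7.10 in NSCL61-sox11, a difference of -1.06 (adjusted p = 0.0392). Acsl5 differed by 0.56 (adjusted p = 0.0147). Both calls were lost without NSCL61 array 1 (adjusted p = 0.122 for Acsl6 and 0.0764 for Acsl5) and without NSCL61 array 2 (0.175 and 0.116). Acsl5 was also not called under poly-A scaling, at a difference of 0.16, or under hybridisation control scaling, at 0.34. Acsl6 was also not called without the trend of variance with level. Over the alternatives the adjusted p ran from 1.04e-10 to 0.175 for Acsl6 and from 1.02e-07 to 0.646 for Acsl5.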

How the data were processed

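Total RNA was labelled with biotin and hybridised to Affymetrix M430_2 arrays, per the labels' protocols. The authors deposited 1 table of processed values, read here as log2 because they run from 2.13 to 14.62; the log base is inferred, and the summarisation and normalization are not given in the sources used here. They were used as deposited. GEO's platform annotation named 34945 of 45101 probe sets by 1 symbol, 932 by several and 9160 by none; 64 were controls, and the last 3 groups were left out. Symbols were checked against RefSeq's table, which changed 0.

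NSCL61-sox11 was set against NSCL61 in limma 3.58.1 (R 4.3.3), using lmFit and two-sided eBayes with a trend. The brightest 60% of probe sets entered, which are 27022 with a mean from 5.15 upward. Benjamini-Hochberg adjustment ran over these, and genes were called under 0.05. The fit leaves 2 residual degrees of freedom, 6.36 after moderation. An exact permutation test of 2 arrays against 2 cannot go below 0.333 and was not used. The number of arrays limits the precision. Errors beside differences are moderated SE, and intervals are limma's 95% intervals. Levels were not compared between probe sets.

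The 51 members and the other lists were chosen with earlier results of these data known. Values are given for called members, for Srebf1, Srebf2, Insig1, Abca1, Apoe, Scd1, Scd2, Fasn and Fabp7, for the 2 brightest uncalled members of each role group and for up to 3 called genes of each further list; values of other members and genes were chosen for the text after they were seen. Alternatives were other normalizations and control scalings, other level filters, the mean of a gene's probe sets, dropping probe sets of the _x_at and _s_at kinds, no trend, a replicate block, and leaving out each array.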

Additional observations from a re-analysis of the deposited data

How the results depend on the processing

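Of the counts and medians under alternatives, 101 stayed within 1.5 times the count or the spread between arrays and 39 moved; of single-gene differences, 491 kept direction and call, 52 gained a call, 58 lost one and 14 turned. Scaling to poly-A controls gave 303 genes of the array that rose, 0 members that rose and 11 that fell, with medians of -0.61 (sterol synthesis), -0.45 (sterol sensing), -0.57 (fatty acid synthesis), -0.85 (LXR-type efflux), -0.38 (uptake and trafficking) and -0.53 (fatty acid handling). Scaling to hybridisation controls gave 702 genes that rose and 2336 that fell, 18 members that fell, and medians of -0.43, -0.27, -0.38, -0.19 (uptake and trafficking) and -0.35 (handling). Under poly-A scaling Elovl1 turned to -0.042, Hmgcs1 to -0.29 and Scarb1 to -0.36, and under hybridisation scaling Hmgcs1 to -0.10 and Scarb1 to -0.17; Scarb1 was -0.0063 as a mean of probe sets. The brightest 40% gave medians of -1.07 (efflux) and -0.18 (handling), and no filter -0.076 (handling), since other genes were tested. Without the trend 2 members fell. Outside the scalings, whose shift is their own construction, the cause was not tested.

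Leaving out each array in turn gave 533 to 1376 genes that rose and 307 to 1316 that fell, and 0 to 3 members that rose and 1 to 21 that fell. Medians ran from -0.46 to -0.049 (sterol synthesis), -0.20 to 0.086 (sensing), -0.18 to 0.13 (uptake and trafficking) and -0.17 to -0.11 (handling). Uncalled genes that changed sign were Hmgcs1 (-0.10 to 0.34), Scarb1 (-0.0015 to 0.091), Srebf2 (-0.13 to 0.028), Insig1 (-0.44 to 0.035), Stard4 (-0.27 to 0.17) and Npc2 (-0.18 to 0.13). A line left with 1 array is assumed to vary like the other.

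With the array number as a replicate block, 2389 genes rose and 2441 fell, and 2 members rose and 20 fell. Deviations of array 1 from its line mean correlated at 0.41 between the lines, over the 27022 tested probe sets. With 2 arrays a line, array 2 gives the same value. Array 2 read higher than array 1 in both lines for 35 of 45 tested members, against 3865 of 13084 genes. The labels do not say that a number marks a shared culture or batch, so whether same-numbered arrays are paired cannot be told. Signal near the level filter limits Abcg1, and 4 members could not be tested.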
